A study of Mus musculus with 32 samples.

Results

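Mitochondrial complex I is assembled from proteins encoded in the nucleus and in the mitochondrial genome, and the nuclear part was described here in 32 primary mouse melanomas. The genes were all protein-coding genes whose GENCODE symbol consists of Nduf, then a, ab, b, c, s, v or af, then a number. The rule found 45 genes of the 50600 in the tables, of which 21764 were protein-coding. They comprised 7 catalytic core subunits, 9 accessory subunits of the matrix arm, 19 accessory subunits of the membrane arm, the acyl carrier Ndufab1, Ndufa4, and 8 assembly factors. Tumour RNA was sequenced after selection of polyadenylated transcripts, in 8 tumours of each genotype and sex. Ecad tumours, labelled Tyr::NrasQ61K;Cdkn2a-/+;°/°;Cdh1F/F, came from mice with an NRAS oncogene driven by the tyrosinase promoter of melanocytes, a single working copy of the tumour suppressor Cdkn2a and floxed, undeleted Cdh1, the gene of E-cadherin. The ΔEcad tumours, labelled Tyr::NrasQ61K;Cdkn2a-/+;Tyr::NRAS/°;Cdh1F/F, differed by a Cre recombinase under the same promoter, which deletes Cdh1 in melanocytes. Their label writes Tyr::NRAS at the position where the study's methods give the Cre transgene. Both genotypes thus carried the oncogene, the Cdkn2a loss and the floxed Cdh1. The labels gave no age, and whole tumours were sequenced, so RNA of the host's own cells was included. The labels do not say that each tumour came from a different mouse, so p-values measure only the spread between these tumours.

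Complex I is the entry point of the respiratory chain. It takes electrons from NADH, passes them through a chain of iron-sulfur clusters in its matrix arm to ubiquinone, and pumps protons through its membrane arm. The core subunits carry out these reactions, the accessory subunits stabilise the complex, and the assembly factors help to build it without being part of the finished enzyme. Ndufa4 carries a complex I name but is known as a subunit of complex IV.

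The sequences around the start sites of these genes are shown first, because they hold letters that the rule on symbols did not use. RefSeq promoters of build GRCm38.p6, each with 250 bases before and 50 after the start site, were at hand for 40 of the 45 genes and for 16429 other coding genes. The letters AAGATGGC, the core of the YY1 motif, were searched on both strands and were found in 8 of the 40 (20%) against 3.23% of the others. All 8 matches lay on the gene's own strand just after the start site, where 42.2% of the 550 matches in other promoters lay. In 7 of the 8 genes the ATG inside the motif was the start codon in the GENCODE annotation, the exception being Ndufaf8. The 8 stretches of 30 bases are printed in the direction of the gene, with the motif in capitals.
Ndufs7 (catalytic core, chr10:80249462-80249491, plus strand): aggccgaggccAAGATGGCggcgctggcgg
Ndufs4 (matrix arm, chr13:114388045-114388074, minus strand): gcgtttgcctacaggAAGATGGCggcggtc
Ndufs6 (matrix arm, chr13:73328433-73328462, minus strand): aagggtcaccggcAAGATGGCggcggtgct
Ndufa9 (matrix arm, chr6:126849097-126849126, minus strand): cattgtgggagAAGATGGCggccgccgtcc
Ndufa3 (membrane arm, chr7:3617384-3617413, plus strand): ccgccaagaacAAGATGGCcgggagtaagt
Ndufb8 (membrane arm, chr19:44555393-44555422, minus strand): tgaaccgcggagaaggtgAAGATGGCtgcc
Ndufc1 (membrane arm, chr3:51408915-51408944, minus strand): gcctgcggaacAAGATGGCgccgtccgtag
Ndufaf8 (assembly factor, chr11:120098933-120098962, plus strand): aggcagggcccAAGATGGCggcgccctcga

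The letters GCGCA, any base and GCGC in a row, the motif of nuclear respiratory factor 1 (NRF1), a regulator of many respiratory genes, were found in 9 of the 40 promoters (22.5%) against 6.88% of the others. The Ndufb4 promoter held 3 of them, and the matches that lay before the start site of Ndufa5 and Ndufs5, a matrix-arm and a membrane-arm subunit, are printed with the motif in capitals.
Ndufa5 (chr6:24527692-24527731, minus strand): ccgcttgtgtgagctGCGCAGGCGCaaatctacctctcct
Ndufs5 (chr4:123718260-123718299, minus strand): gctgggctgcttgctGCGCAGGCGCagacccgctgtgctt
Of the other searched letters, the ETS core CCGGAAG, the SP core GGGCGG and TATAAA stood near their shares elsewhere. They were in 15%, 52.5% and 10% of the 40, against 12.35%, 48.3% and 12.8% of the others. The oestrogen-related receptor core AAGGTCA and the cyclic-AMP element TGACGTCA were each in 3 of the 40 (7.5%), against 3.91% and 2.42%. At least 1 of the NRF1, ETS and YY1 motifs was in 21 of the 40 (52.5%) against 20.2% of the others. A median of 59.2% of the bases of the 40 promoters were G or C, against 57% in the others, and their median count of CG dinucleotides was 20 against 14. These are letter matches, and binding was not measured.

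Total counts per tumour lay between 24036333 and 63923086, and every gene had at least 83 counts in every tumour, so counting error was small beside the spread between tumours. The labels were checked against Cdh1 and sex-linked genes. Cdh1 had a median of 145 TPM (a level scaled for gene length and library total) in Ecad males and 3.29 in ΔEcad males. The male groups still overlapped, since the lowest Ecad male was at 25 TPM and the highest ΔEcad male at 65.2. Their fitted log2 fold change was -3.33 ± 0.96 (SE), with adjusted p = 0.37 by edgeR. Female medians were 30.6 for Ecad and 46.7 for ΔEcad, so Cdh1 did not separate the female genotypes (log2 fold change -0.0024 ± 0.87 SE, adjusted p = 0.999 by edgeR). Xist was at 6.41 TPM, and the Y-linked genes Ddx3y, Uty, Kdm5d and Eif2s3y at 0 TPM, in the library labelled ΔEcad male 2, against its sex label. In the library labelled ΔEcad male 7 the mean log2(TPM + 1) of the melanocytic markers was 1.77, against 8.02 or more in every tumour of the 3 other groups.

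The libraries labelled ΔEcad male 1 and ΔEcad male 2 also stood apart in the levels described below and in the way their values ran with gene length. In each tumour the deviation of log2(TPM + 1) from the gene's median over all tumours was set against log10 gene length over 7593 other coding genes. The slope was -1.73 in ΔEcad male 1 and -1.38 in ΔEcad male 2, the lowest of the 32, where a negative slope means that short genes were relatively high. Of the 45 complex I genes, 38 had a negative r with this slope across tumours, and the share among other genes was not computed. The mean log2(TPM + 1) over the 45 genes had r = -0.53 with the slope, but -0.09 without ΔEcad male 1 and 2. The main results that these libraries bear on are given with and without them, and the part of the length slope in them was not tested beyond those values.

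All 45 genes were expressed in all 32 tumours. The highest median levels were those of the membrane-arm subunits Ndufb9 (589 TPM) and Ndufa1 (456 TPM) and the matrix-arm subunit Ndufa6 (532 TPM). The lowest were those of Ndufb2 (7.17 TPM), a membrane-arm subunit, and of the assembly factors Ndufaf6 (10.4 TPM) and Ndufaf4 (12.4 TPM). Although their proteins stand in fixed proportions in the complex, the TPM medians of the subunits spanned from 7.17 to 589 TPM. TPM divides counts by a gene length, so ranks between genes also depend on that length. The length behind the deposited TPM was 13.4 times that of Ndufa1 for Ndufb2, and 1.55 times for Ndufb9. Its part in the span was not tested. Ndufb2 and 17 others of the 45 genes share exon bases with another gene. Most of these partners lie on the opposite strand, while Gm42420 in Ndufb2, Gm20538 in Ndufb8 and Gm49356 in Ndufb9 lie on the same strand. The counting was not stated to use the strand, so these levels are uncertain.

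**Figure D1:**
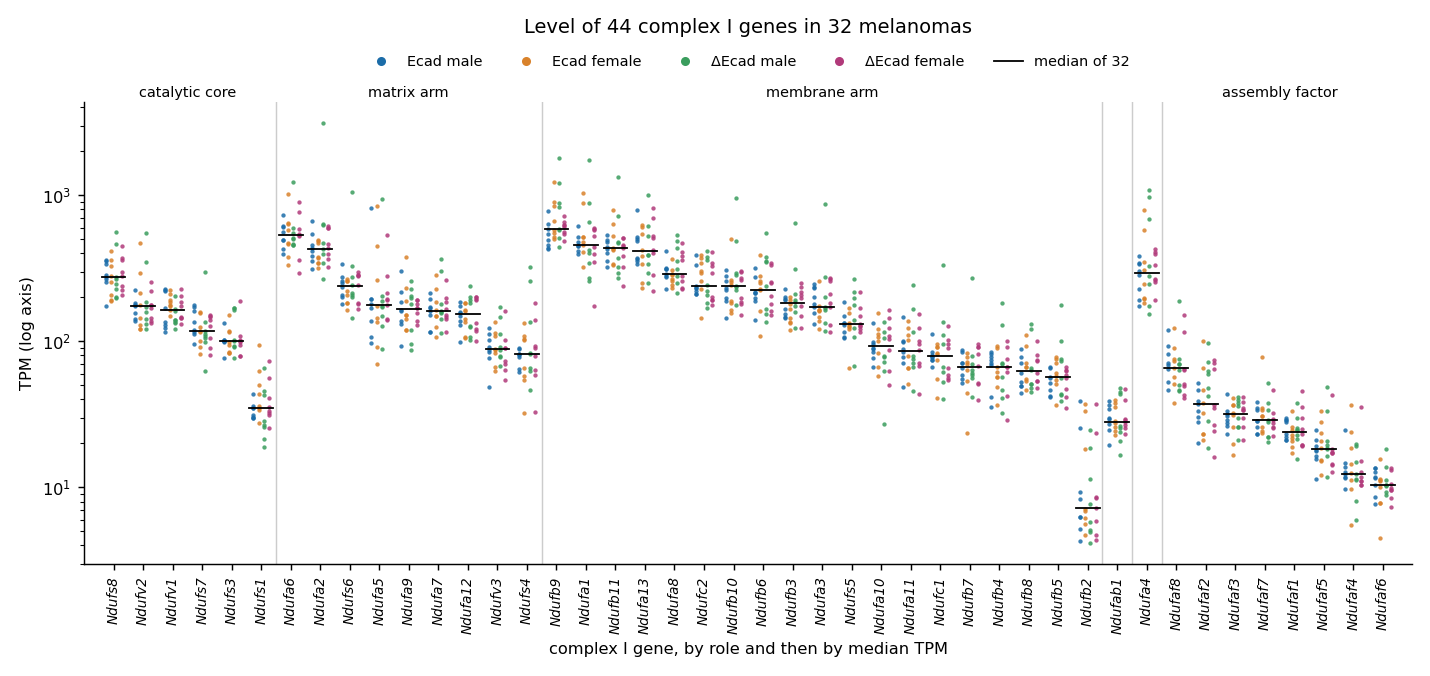
TPM (log axis) of 44 of the 45 complex I genes, ordered by role and then by median, in 32 tumours. Each point is a tumour, coloured by label group, and each black line is the median of all 32. The colours overlap for every gene, the 8 assembly factors lie low, and single ΔEcad male points stand above the rest for many subunits.

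In the catalytic core, Ndufs8, which takes part in passing electrons to ubiquinone, had a median of 277 TPM. Ndufv2 (174 TPM) and Ndufv1 (165 TPM), the latter being the subunit that binds NADH and its flavin, lay below it. Ndufs7 followed at 118 TPM and Ndufs3 at 100.1 TPM. Ndufs1, the largest core subunit and a carrier of several iron-sulfur clusters, had the lowest median of the core, 35 TPM. The gene length behind its TPM was 19.3 times that of Ndufa1, against 4.1 times for Ndufs7 and 5.2 times for Ndufs3. The highest tumour of Ndufs1 (94.3 TPM) lay below the lowest tumour of Ndufv1 (116 TPM). The ranges of Ndufs7 and Ndufs3 overlapped with that of Ndufs1.

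Ndufs1 also differed from the other core genes in where it was high. Its values ran from 18.8 TPM in ΔEcad male 1 to 94.3 TPM in Ecad female 1. Ndufv1 and Ndufs3 were not highest in ΔEcad male 1 either, whereas Ndufv2 reached 553 TPM, Ndufs7 299 TPM and Ndufs8 560 TPM there. Ndufv1 was also among the steadiest of all 45 genes, with an SD of log2(TPM + 1) over the 32 tumours of 0.30.

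Over the 9 accessory subunits of the matrix arm the medians ran from 81.7 to 532 TPM, with 166 TPM in the middle. Over the 19 of the membrane arm they ran from 7.17 to 589 TPM, with 172 TPM in the middle, close to the 165 TPM of the core. The 8 assembly factors ran from 10.4 to 65.5 TPM, with 26.3 TPM in the middle. The highest of them was Ndufaf8 (65.5 TPM), which stabilises Ndufaf5 (18.2 TPM), itself an enzyme that modifies Ndufs7. Ndufaf2, a relative of the subunit Ndufa12 that sits in its place during assembly, had 37.5 TPM and the largest SD of the factors, 0.69, from 16.2 TPM in ΔEcad female 5 to 101 TPM in Ecad female 1. Ndufaf3 (31.6 TPM) and Ndufaf1 (24 TPM) were steady, with an SD of 0.33 each. Ndufaf7 (28.7 TPM), a methyltransferase, ran from 20.5 TPM in ΔEcad male 6 to 77.8 TPM in Ecad female 1. The acyl carrier Ndufab1, which serves both complex I and fatty acid synthesis, had 28.2 TPM.

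The X chromosome carried 2 of the genes, Ndufa1 and Ndufb11, both of the membrane arm. Ndufa1 had a lowest, median and highest level of 398, 454 and 612 TPM in Ecad males and of 324, 498 and 1039 TPM in Ecad females. In ΔEcad males these were 259, 415 and 1756 TPM, and in ΔEcad females 175, 485 and 599 TPM. The groups overlapped throughout, and neither gene was called between the sexes (adjusted p of at least 0.68 in Ecad and of at least 0.54 in ΔEcad tumours). Ndufb11 had medians of 438, 432, 422 and 443 TPM in the same order of groups, and its highest value, 1332 TPM, was again in ΔEcad male 1.

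A complex I level was set for each tumour as the mean log2(TPM + 1) over the 45 genes. It ran from 6.43 in Ecad male 4 to 7.84 in ΔEcad male 1, a 2.66-fold span. The 45 genes together took 0.579% to 2.28% of all TPM. Ecad tumours had a mean of 6.77 ± 0.22 (SD, n = 8) for the males and 6.79 ± 0.24 for the females. For ΔEcad tumours it was 6.89 ± 0.49 for the males and 6.80 ± 0.26 for the females. The means lay closer to each other than the SD of any group. The median of ΔEcad males, 6.66, was the lowest of the 4 medians although their mean was the highest. ΔEcad male 1 and ΔEcad male 2 (7.37) held the highest levels of all tumours, and without ΔEcad male 1 the mean of its group was 6.75.

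**Figure D2:**
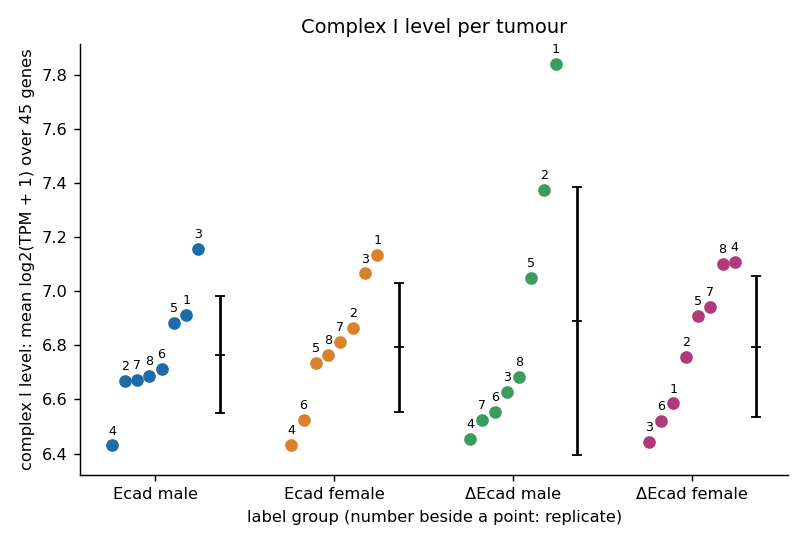
Complex I level, the mean log2(TPM + 1) over 45 genes, of each tumour in the 4 label groups. Points are tumours, spread sideways by their value and numbered by replicate, and bars give the mean ± SD of 8 tumours. The groups overlap between 6.45 and 7.11, and ΔEcad male 1 (7.84) and 2 (7.37) lie above all others.

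The genes that were high in ΔEcad male 1 were many but not all. Of the 45 genes, 27 had their highest value of all 32 tumours there and 5 in ΔEcad male 2. Ndufa2, a small matrix-arm subunit, reached 3140 TPM in ΔEcad male 1 against at most 668 TPM in the other groups. Ndufa6 reached 1226 TPM there, against at most 1022 TPM in the other groups (Ecad female 3). Ndufs1 had its lowest value in the same tumour. The mitochondrially encoded subunits were low there as a list, except mt-Nd6, which had its highest value of all tumours in ΔEcad male 1 (248.7 TPM). The mean log2(TPM + 1) of the 7 was 6.2 in ΔEcad male 1 and 6.45 in ΔEcad male 2, the lowest of all tumours, where the median tumour had 8.45. Each of the 7 weighs the same in this mean, although mt-Nd3 and mt-Nd4l reached at most 19.05 and 10.1 TPM in any tumour. The far higher mt-Nd1, mt-Nd2, mt-Nd4 and mt-Nd5 were each lowest in ΔEcad male 1. The mean over 12 hypoxia and glycolysis genes was 4.66 in ΔEcad male 1, also the lowest, against a median of 6.66.

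Across the 32 tumours most of the genes varied together. Pearson's r of each gene with the mean of the 44 others had a median of 0.71 and was over 0.5 for 31 of the 45 genes (68.9%). Of 7593 other coding genes, 2.75% reached such an r with the complex I level. Without ΔEcad male 1 and 2, 26 of the 45 genes were over 0.5 with a median r of 0.56, against 1.69% of the other genes. The tumours share library depth and composition effects, and these values are a description over 32 libraries. After the length slope of each tumour was taken out, 31 genes were over 0.5, but not the same set. Ndufs1 (0.63), for example, entered it and Ndufa5 (0.43) left it. The share of other genes over 0.5 was not computed after this step.

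The genes that followed the others most were Ndufb11 (r = 0.87) and Ndufb5 (0.85), both in the membrane arm, and Ndufv2 (0.85) in the core. Those that followed least were the membrane-arm subunit Ndufa10 (-0.03), Ndufs1 (0.07) and Ndufv1 (0.13). Ndufs1 and Ndufa10 parted on closer view. Without ΔEcad male 1 and 2 the r of Ndufs1 was 0.39, and after the length slope it was 0.63, whereas Ndufa10 stayed at 0.02 and 0.11. The level of Ndufa10 was lowest in ΔEcad male 8 (27.3 TPM) and highest in ΔEcad female 4 (163 TPM). The assembly factors as a group followed the level of all 45 genes with r = 0.71, the core with 0.91 and the membrane arm with 0.98, although each of these lists forms part of that level.

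The genes outside the 45 that followed the level most closely all encode small mitochondrial proteins. They were Atp5j2 (r = 0.93), Atp5h, Atp5l, Atp5o and Atp5k of the ATP synthase, Cox7c (0.89), Cox6b1 and Cox7a2 of complex IV, Uqcr10 of complex III, and Timm10 of the import machinery. Without ΔEcad male 1 and 2 their r lay between 0.60 (Atp5k) and 0.87 (Atp5j2).

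**Figure D3:**
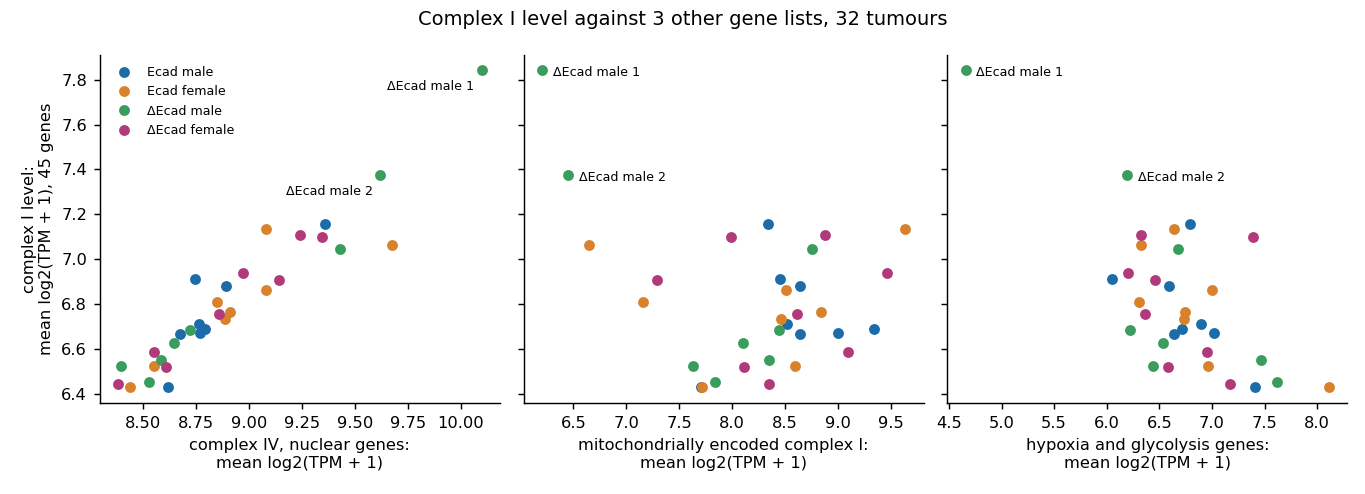
Complex I level (vertical axis) against the mean log2(TPM + 1) of 10 nuclear complex IV genes, of the 7 mitochondrially encoded complex I genes and of 12 hypoxia and glycolysis genes in 32 tumours, coloured by group. The points follow a line for complex IV (r = 0.94), while for the mitochondrially encoded genes ΔEcad male 1 and 2 lie far to the left of the others.

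Whole complexes were compared with the level in the same way. It had r = 0.94 with the mean of 10 complex IV genes, 0.86 with 15 genes of complex V and 0.85 with 9 of complex III, but 0.33 with the 4 genes of complex II, succinate dehydrogenase. Without ΔEcad male 1 and 2 these were 0.91, 0.82, 0.90 and 0.46. With the mitochondrially encoded complex I genes it was -0.33 over 32 tumours and 0.15 without these libraries. With the hypoxia and glycolysis genes it was -0.70, and -0.48 without them. Regulators of mitochondrial genes such as Ppargc1a, Nrf1 and Tfam had -0.17 as a list of 10, and 0.28 without the pair of libraries. Markers of keratinocytes (0.13) and skeletal muscle (0.03) did not run with the level. Melanocytic markers had 0.04 over 32 tumours. Without ΔEcad female 2 and ΔEcad male 7, the tumours farthest from the median of that list, they had -0.31. The fibroblast list had -0.50, or -0.40 without ΔEcad male 1 and 2. In whole tumours fewer cells of a type and less RNA per cell cannot be told apart.

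The genes that varied most were Ndufb2, Ndufa5 and Ndufa4, with an SD of log2(TPM + 1) of 0.97, 0.91 and 0.72 against a median of 0.48 over the 45 genes. All lie on chromosome 6. Ndufb2 (chr6:39592574-39603382) had 11.4 TPM or less in 23 tumours and 18.3 to 38.9 TPM in the other 9. These were Ecad male 1 (38.9 TPM) and 5, Ecad female 1, 3 and 7 (37 TPM), ΔEcad male 1 and 4, and ΔEcad female 5 (37.5 TPM) and 7. Each label group thus held tumours of both kinds, and the widest step between them was chosen from these values.

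In most of the tumours in which Ndufb2 was high its neighbours were high as well. The mean log2 deviation of its 16 neighbours within 2 Mb was 0.37 (ΔEcad female 7) to 2.56 (ΔEcad male 4) in 8 of the 9, but -1.44 in ΔEcad male 1, and it was 0.40 in ΔEcad male 5, which was not among the 9. Each of its 25 most closely correlated genes, out of 10034 expressed coding genes, lay on chromosome 6 within 20 Mb. The closest were Cyren (r = 0.92, at 4.72 Mb), Arf5 (0.90, at 11.2 Mb), Ssbp1 (0.88, at 0.879 Mb) and Atp6v1f (0.87, at 10.1 Mb). Of 101 genes within 15 Mb 49 had an r over 0.5, against 3 of 381 genes farther away on the chromosome. Between 15 and 10 Mb before Ndufb2 10 of 15 genes were over 0.5, and between 20 and 15 Mb before it 1 of 5. After Ndufb2 6 of 12 genes were over 0.5 within 5 Mb, and 0 of 23 between 5 and 10 Mb.

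Such local likeness was rare. Of the genes outside the 45, 42 (0.42%) had 20 or more of their 25 closest genes within 20 Mb, and all 42 lay on chromosome 6 within 15 Mb of Ndufb2. The median over genes was 1 of 25, for the 45 as for the others. The complex I gene with the next highest count was Ndufs5, with 10. Ndufa5, 15.1 Mb from Ndufb2, had r = 0.69 with it, whereas Ndufa4, 27.7 Mb away, had 0.21 and Ndufa9, 87.3 Mb away, had -0.09. DNA copy number was not measured here. These relations were looked for after the values of Ndufb2 had been seen.

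**Figure D4:**
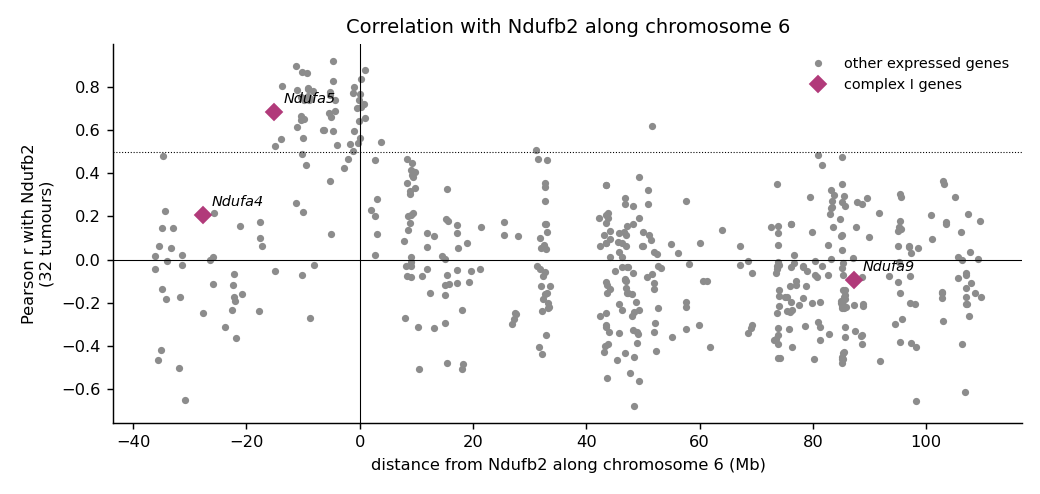
Pearson's r with Ndufb2 over 32 tumours (vertical axis) of 482 expressed coding genes of chromosome 6, against their distance from Ndufb2 in Mb. Diamonds are the complex I genes and the dotted line marks r = 0.5. High values cluster within 15 Mb of Ndufb2, mostly on its left, and Ndufa5 (r = 0.69) lies at the edge of that cluster.

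Ndufa5, a matrix-arm subunit, had the widest span of the 45 genes, 13.4-fold. It was highest in ΔEcad male 1 (937 TPM), Ecad female 7 (844 TPM) and Ecad male 1 (814 TPM), and lowest in Ecad female 5 (70.1 TPM). It exceeded 449 TPM in 5 tumours and was at most 280 TPM in the other 27. The next Ecad male after replicate 1 had 196 TPM. Its medians were 175 and 159 TPM for male and female Ecad tumours, and 174 and 194 TPM for male and female ΔEcad tumours.

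Likeness to neighbours was then compared over 44 of the complex I genes, Ndufb2 and Ndufa5 included. With each tumour's mean taken out, r with the mean of the genes within 2 Mb had a median of 0.28 over these genes and 0.29 over 9856 others, and was over 0.5 for 29.5% and 21.4% of them. Without that centring the medians were 0.04 and 0.47, and 6 of the complex I genes were over 0.5, against 45.3% of the others. Many of the genes share a start region with a gene on the opposite strand. A coding gene began within 1000 bases of the start of 21 of the 45 genes (46.7%), against 16.95% of 10034 expressed coding genes. The r between the genes of these pairs had a median of 0.09, and 1 pair exceeded 0.5, Ndufa7 with the ribosomal protein gene Rps28 (r = 0.68, starts 10 bases apart). Without ΔEcad male 1 and 2 the median was 0.19 and 3 pairs exceeded 0.5, Ndufa7 with Rps28 and Ndufa4 with Phf14 (0.62 each) and Ndufaf7 with Cebpz (0.52). The partner was under 1 TPM in 3 of the 21 pairs.

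Between ΔEcad and Ecad males, the comparison that asks what loss of Cdh1 does in male tumours, all 45 genes had a fitted log2 fold change above 0, with a median of 0.69 where the median of all genes was 0.11. None was called by edgeR, which took an adjusted p below 0.05 together with a log2 fold change beyond 1 in size, with 0% of the 17717 genes tested called. DESeq2 called 0 of the 45 and 0.119% of all genes, and both limma fits called 0 of either. The unadjusted p was under 0.05 for 23 of the 45 genes (51.1%), against 10.2% of all genes. By role these were 13 of the 19 membrane-arm subunits, 5 of the 9 of the matrix arm, 2 of the 7 core subunits, 2 of the 8 assembly factors and Ndufa4.

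These values rested on ΔEcad male 1. Without it the median log2 fold change was 0.22, 40 genes were above 0 and 2 were under an unadjusted p of 0.05 (4.44%, against 7.75% of all genes). With ΔEcad male 2 left out as well the median was 0.05, with 25 genes above 0, 20 below and none under 0.05, where the median of all genes was 0.07. Log scales give a single high tumour less weight. On them the median of the 45 genes was 0.19 by limma voom with quality weights and 0.11 by limma on log2(TPM + 1). The medians of all genes in these fits were -0.016 and -0.16. In each fit 1 of the 45 genes was under 0.05, against 10.6% and 8.2% of all genes.

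The gene with the smallest p was Ndufb10, a membrane-arm subunit. Its lowest, median and highest levels were 144, 228 and 307 TPM in Ecad males and 177, 263 and 956 TPM in ΔEcad males, so the groups overlapped and ΔEcad male 1 lay far above. The fitted log2 fold change was 1.25 ± 0.37 (SE), with adjusted p = 0.38. Ndufb9 had 428, 522 and 777 TPM in Ecad males against 441, 714 and 1810 TPM in ΔEcad males (1.15 ± 0.35, adjusted p = 0.38).

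Ndufa2 followed with 311, 425 and 668 TPM against 268, 451 and 3140 TPM (1.53 ± 0.48, adjusted p = 0.39). Its medians differed far less than its fitted fold change. The same held for Ndufa4, with medians of 293 and 303 TPM (1.35 ± 0.44, adjusted p = 0.39), and for Ndufs4, a late-joining matrix-arm subunit, with medians of 81.4 and 82.3 TPM (1.3 ± 0.43, adjusted p = 0.39). Between these groups 0 of the 45 genes had TPM values that did not overlap, against 0.0282% of all genes. The same count of 0 was found between the female genotypes (0.0339% of all genes) and between the sexes in Ecad (0.113%) and ΔEcad tumours (0.00564%).

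**Figure D5:**
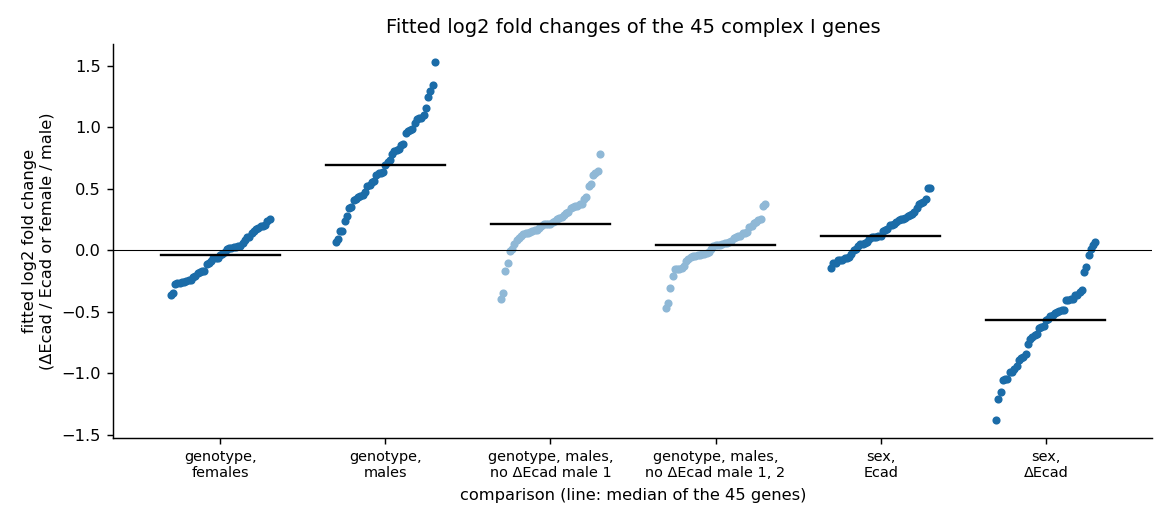
Fitted log2 fold change (edgeR) of each of the 45 genes in the comparisons named below the axis, ordered by value, with the median as a black line. All 45 points lie above 0 for genotype in males (median 0.69). In pale blue the same comparison is refitted without ΔEcad male 1 (median 0.22) and without ΔEcad male 1 and 2 (median 0.05).

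Between ΔEcad and Ecad females the median log2 fold change of the 45 genes was -0.04, against -0.02 over all genes, with 20 genes above 0 and 25 below. With the length slope as covariate it was -0.30, with 44 genes below 0 and 5 under an unadjusted p of 0.05 (11.1%, against 14.8% of all genes). None was called, where edgeR called 1.2% of all genes, and none had an unadjusted p under 0.05 (15.3% of all genes). DESeq2, which called 7.23% of all genes, and both limma fits, which called 1 gene each, called 0 of the 45. The smallest p was that of Ndufs1, with 27.5, 39.8 and 94.3 TPM in Ecad and 25.4, 34.4 and 73.3 TPM in ΔEcad females (log2 fold change -0.26 ± 0.20 SE, adjusted p = 0.61). Among the next were Ndufaf7 (-0.26 ± 0.21, adjusted p = 0.63), Ndufb9 (-0.34 ± 0.34) and Ndufaf1 (0.18 ± 0.20). The other SEs reached 0.61, for Ndufa5, so modest differences of the more variable genes were not detectable.

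Between female and male Ecad tumours 35 of the 45 genes had a fold change above 0, with a median of 0.12 against 0.05 over all genes. With the length slope as covariate all 45 were above 0, with a median of 0.39 and 10 under an unadjusted p of 0.05 (22.2%, against 14.6% of all genes). None was called, where edgeR called 0.0508% of all genes. DESeq2 and limma voom, which called 5.77% and 0.649% of all genes, and limma on log2(TPM + 1), which called 0.0508%, also called 0 of the 45. The unadjusted p was under 0.05 for Ndufs1 (16% of all genes). Ndufs1 had 29.8, 33.2 and 43.3 TPM in Ecad males and 27.5, 39.8 and 94.3 TPM in Ecad females (log2 fold change 0.51 ± 0.20 SE, adjusted p = 0.21), and the groups overlapped.

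Between female and male ΔEcad tumours 42 of the genes had a fold change below 0, with a median of -0.57 against -0.06 over all genes. None was called, where edgeR called 0.0395% of all genes. DESeq2, which called 0.135% of all genes, and both limma fits, which called 0.0339% each, also called 0 of the 45. The unadjusted p was under 0.05 for 19 genes (42.2%, against 8.81% of all genes). These were the same male tumours as above, and without ΔEcad male 1 the median was -0.08 and no gene was under 0.05. Leaving out both gave a median of 0.12, above 0. Ndufb10 again had the smallest p (-1.20 ± 0.37, adjusted p = 0.48), with medians of 263 TPM in males and 229 TPM in females. Ndufb9 (-0.99 ± 0.35), Ndufa2 (-1.38 ± 0.48), Ndufb5 (-0.99 ± 0.36) and Ndufa4 (-1.15 ± 0.44) came next, with adjusted p between 0.48 and 0.50.

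The interaction, which asks whether the genotype difference differs between the sexes, was below 0 for all 45 genes with a median of -0.72, against -0.16 over all genes. It uses the same tumours as the comparisons above. None was called by edgeR (0% of all genes) or by the limma fits (0 genes each), nor by DESeq2, which called 6.91% of all genes, and 10 genes had an unadjusted p under 0.05 (22.2% of the 45, against 17.7% of all genes). At an adjusted p under 0.1 Ndufb9 was the 1 gene called (-1.50 ± 0.49, adjusted p = 0.091), where 5.31% of all genes were. Ndufb10 (-1.36 ± 0.52, adjusted p = 0.16), Ndufa4 (-1.57 ± 0.61), Ndufb5 (-1.25 ± 0.50) and Ndufv2 (-1.22 ± 0.54) followed. The median was -0.27 without ΔEcad male 1.

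Averaged over both sexes the genotype difference had a median of 0.30, with 8 genes under an unadjusted p of 0.05 (9.88% of all genes) and 0 called, where 0.0113% of all genes were. The smallest p belonged to the membrane-arm subunit Ndufb3 (0.66 ± 0.25, adjusted p = 0.40). The median was -0.03 without ΔEcad male 1 and 2. Averaged over both genotypes the sex difference had a median of -0.24, but of 0.19 with 44 of the 45 genes above 0 when ΔEcad male 1 and 2 were left out. None was called (0.0734% of all genes) and 1 gene, Ndufa2, was under an unadjusted p of 0.05 (-0.71 ± 0.34, adjusted p = 0.71), against 6.85% of all genes.

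Genes that work with the 45 were taken as lists. Of the 7 mitochondrially encoded complex I subunits 0 were called by edgeR in males or females, and 0 had an unadjusted p under 0.05. Over all genes edgeR called 0% in males and 1.2% in females, and 10.2% and 15.3% had an unadjusted p under 0.05. Between ΔEcad and Ecad males 6 of the 7 were below 0 (median -0.63, and -0.35 without ΔEcad male 1 and 2), the direction opposite to the nuclear genes in the same fit. The smallest p was that of mt-Nd4 (-0.66 ± 0.42, adjusted p = 0.57), with medians of 5493 TPM in Ecad and 3360 TPM in ΔEcad males and with 491 TPM in ΔEcad male 1. In females 6 of the 7 were above 0 (median 0.28, adjusted p of at least 0.69). Of 11 further assembly factors with other names 0 were called, with 3 under an unadjusted p of 0.05 in males (10.2% of all genes) and 0 in females (15.3% of all genes). Nubpl, which delivers iron-sulfur clusters to complex I, had 1.16 ± 0.33 in males (adjusted p = 0.37), and Acad9, a partner of Ndufaf1, had 0.34 ± 0.24 in females (adjusted p = 0.55).

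In males the fitted fold changes of the other complexes, from the same tumours, were also above 0. All 10 complex IV genes were above 0 (median 0.96), as were the 15 of complex V (0.63), the 9 of complex III (0.52) and the 4 of complex II (0.37). None was called by edgeR (0% of all genes), and 7, 8, 4 and 1 of them had an unadjusted p under 0.05, against 10.2% of all genes. Without ΔEcad male 1 the medians of complexes IV, V, III and II were 0.31, 0.44, 0.20 and 0.23, and without ΔEcad male 1 and 2 they were 0.03, 0.19, 0.00094 and 0.18, with 0 genes under an unadjusted p of 0.05. The smallest p values were those of Uqcrh (1.90 ± 0.50) and Atp5e (2.10 ± 0.57), both with adjusted p = 0.37. In females the medians were -0.10, -0.13, -0.02 and -0.08, with 0 called (1.2% of all genes) and 0 under an unadjusted p of 0.05 (15.3% of all genes). Of the 12 hypoxia and glycolysis genes and the 10 regulators 0 were called in either sex. In males 2 hypoxia and glycolysis genes were under an unadjusted p of 0.05, where 10.2% of all genes were. The smallest p in females were those of Pgk1 (-0.65 ± 0.44) and of Ppargc1a (-1.72 ± 0.88, adjusted p = 0.35).

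Ndufa4l2, a relative of Ndufa4 that the symbol rule leaves out and that is known as a target of hypoxia-inducible factor, was the only tested gene with an Nduf symbol that was called in any of the 7 comparisons. It had a lowest, median and highest level of 3.06, 12 and 47.6 TPM in Ecad females and of 16.3, 100.3 and 567 TPM in ΔEcad females, and the groups overlapped. The log2 fold change was 3.22 ± 0.74 (SE), with adjusted p = 0.039 by edgeR. DESeq2 called it too, and over all alternatives tried the adjusted p ran from 0.000146 to 0.69. The call was lost in 10 of 32 fits that each left out 1 tumour (adjusted p between 0.024 and 0.11). Each of these 10 left out a female tumour, Ecad female 1, 2, 3, 4, 6, 7 or 8, or ΔEcad female 1, 2 or 7. The call was also lost without ΔEcad male 1 and 2 (log2 fold change 3.20), where edgeR called 0.0165% of all genes. With the length slope as covariate it was lost as well (3.01), where 0.0169% of all genes were called. With keratinocyte and skeletal muscle marker levels as covariates the fold change was 1.04 and the adjusted p 0.69. All 10 keratinocyte and all 10 skeletal muscle markers had fitted log2 fold changes above 0 between the same females, with medians of 5.29 and 3.30. Of them 9 and 4 had an unadjusted p under 0.05 (15.3% of all genes), and 0 were called (1.2% of all genes). Their part in the result was not tested further. Male tumours had Ndufa4l2 medians of 136 (Ecad) and 35.6 TPM (ΔEcad) (-1.37 ± 0.69, adjusted p = 0.49). The interaction was 4.59 ± 1.00 with adjusted p = 0.051, which missed the threshold.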

How the data were processed

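Per the labels and the study's methods, the authors extracted RNA from primary mouse melanomas, prepared stranded libraries of polyadenylated RNA, checked reads with FastQC 0.11.5 and aligned them with STAR to the mouse genome (GRCm38, with GENCODE annotation). Batch correction was described for use when applicable and not stated for these tumours, and strand use in counting was not given in the sources used here. The authors deposited raw read counts per gene and TPM values for 32 tumours. TPM as deposited was used for levels, and log2(TPM + 1) for scores and correlations. The counts as deposited were tested with edgeR 4.0.16 (R 4.3.3) by the quasi-likelihood test, with TMM factors, filterByExpr, robust estimation and 1 coefficient per group over all 32 tumours. Adjustment was by Benjamini-Hochberg over the 17717 genes tested, and a gene was called at an adjusted p under 0.05 with an absolute log2 fold change over 1. All tests were two-sided. The fitting step was tested on simulated counts with known changes.

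Alternatives used DESeq2 1.42.0, limma 3.58.1, other size factors and filters, covariates, a replicate block and the removal of each tumour in turn. Python 3.11.15 with scipy 1.17.1 was used for the other steps. Groups came from the labels. The genes given in detail were those with the 3 highest and 3 lowest median TPM, the core, the X-linked genes, the assembly factors, those with the 3 largest and 3 smallest SD, those that followed the level least, and the 5 with the smallest p in each comparison. The lists of other complexes, regulators, hypoxia and glycolysis genes and cell type markers were described by counts and medians. The genes and lists were chosen with earlier results of these data known. Promoter sequences came from RefSeq (GRCm38.p6) and gene positions from GENCODE (GRCm38). The values of 1 core gene are not reported here, though it enters counts and medians. Correlations and letter matches are descriptions with no test.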

Additional observations from a re-analysis of the deposited data

Results flagged for a closer look

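In each group of 8 tumours the highest or lowest value of each of the 45 complex I genes, and of the complex I level, was set against its nearest neighbour. A gap above Dixon's 95% critical value, as a share of the group's whole range, was marked. Gaps and ranges were taken on log2(TPM + 1), while the levels are printed in TPM. Chance marks about 1 in 20 groups, and 18 of 184 were marked, 7 of them on ΔEcad male 1 and 3 on ΔEcad female 8.

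In ΔEcad males tumour 1 stood above the rest for Ndufa2 (3140 TPM, next 636, gap 0.649 of the range), Ndufa3 (875 and 276 TPM, 0.575), Ndufa5 (937 and 206 TPM, 0.645), Ndufa6 (1226 and 596 TPM, 0.729), Ndufaf8 (189 and 76.3 TPM, 0.639), Ndufb7 (271 and 78.8 TPM, 0.660) and Ndufs6 (1054 and 329 TPM, 0.588).

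In ΔEcad females tumour 8 stood above the rest for Ndufaf4 (35.4 and 15.1 TPM, 0.699), Ndufaf5 (42.6 and 18.4 TPM, 0.703) and the core subunit Ndufs3 (190 and 109 TPM, 0.636). Tumour 3 lay below the rest for Ndufa1 (175 and 350 TPM, 0.564).

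In Ecad males tumour 1 stood above the rest for Ndufa5 (814 and 196 TPM, 0.673) and Ndufaf4 (24.7 and 14.7 TPM, 0.569), and tumour 3 for Ndufc1 (111 and 85.1 TPM, 0.530). Tumour 4, which had the lowest complex I level, lay below the rest for Ndufs8 (174 and 256 TPM, 0.535).

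In Ecad females tumour 1 stood above the rest for Ndufaf7 (77.8 and 35.1 TPM, 0.673) and Ndufb10 (502 and 265 TPM, 0.545), and tumour 6 lay below the rest for Ndufs5 (65.4 and 121 TPM, 0.639).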

How the results depend on the processing

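Over 49 alternatives per comparison the count of complex I genes called stayed at 0 with 1 exception, the 1 gene (Ndufb9) called for the interaction at an adjusted p under 0.1. Of 329 medians 312 moved by less than the SD of the level between tumours (0.32). That SD is wide for medians near 0, so a median could change sign and still count among the 312. Genotype over both sexes did so, from 0.30 to -0.013 with the length slope as covariate. The smallest adjusted p of any of the 45 genes in any fit was 0.051. Where values moved, the cause was not tested. The removal of ΔEcad male 1 and 2 and the length slope covariate were chosen after seeing the data.

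In males the median of 0.69 became 0.19 by limma voom, 0.11 by limma on log2(TPM + 1), 0.045 without ΔEcad male 1 and 2 and 0.22 with the length slope as covariate, and the 23 genes under an unadjusted p of 0.05 became 1, 1, 0 and 4 in these fits and 14 with only the tumours compared. For sex in ΔEcad tumours the median of -0.57 became -0.14, -0.11, 0.12 and -0.14, and the 19 genes became 0, 0, 0 and 0, and 2 with only the tumours compared. For the interaction the median of -0.72 became -0.16 by voom, -0.078 on log2(TPM + 1) and -0.080 without ΔEcad male 1 and 2, and the 10 genes became 2, 1 and 1, as well as 6 with RLE factors, 4 with upper quartile factors, 6 with no low-count filter and 6 with keratinocyte and skeletal muscle covariates. In females the length slope covariate gave 5 genes in place of 0, and for sex in Ecad tumours 10 in place of 1, against 3 without ΔEcad male 1 and 2 and 0 on log2(TPM + 1) or with the keratinocyte and skeletal muscle covariates. For genotype over both sexes the 8 genes became 0 by voom, on log2(TPM + 1), without ΔEcad male 1 and 2 and with the length slope, 5 with keratinocyte and skeletal muscle covariates, 13 with the melanocytic covariate and 14 without ΔEcad male 7 and ΔEcad female 3. For sex over both genotypes the 1 gene became 2 with upper quartile factors, 3 with the melanocytic covariate, 3 without ΔEcad male 7 and ΔEcad female 3, and 0 by voom, on log2(TPM + 1), with the keratinocyte and skeletal muscle covariates and with the length slope. Averaged over the sexes the genotype median was -0.028 without ΔEcad male 1 and 2, and averaged over the genotypes the sex median was 0.19 without them and 0.10 with the length slope. The span of the level between tumours was 2.41 on log2 CPM in place of 1.41.

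Of 1692 fold changes of named genes 1680 kept their direction. The others turned without ΔEcad male 1 and 2, for sex in ΔEcad tumours (Ndufa2 0.14, Ndufa4 0.0020) and for sex over both genotypes (Ndufa2 0.082, Ndufb10 0.056, Ndufb3 0.052, Ndufs6 0.058, Ndufc1 0.11), or with the length slope as covariate, for sex over both genotypes (Ndufa2 0.12, Ndufb3 0.023, Ndufs6 0.048, Ndufc1 0.042) and for genotype over both sexes (Ndufa3 -0.00477).

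Leaving out each tumour in turn gave medians of -0.14 to 0.06 in females, 0.22 to 0.81 in males (2 to 30 genes under an unadjusted p of 0.05), 0.02 to 0.22 for sex in Ecad (0 to 2 genes), -0.68 to -0.084 for sex in ΔEcad (0 to 26 genes), -0.83 to -0.27 for the interaction (1 to 17 genes), 0.11 to 0.39 for genotype over both sexes (0 to 12 genes) and -0.30 to 0.05 for sex over both genotypes (0 to 6 genes). The lowest values in males and the highest for sex in ΔEcad tumours were those without ΔEcad male 1.

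The tumours share replicate numbers across groups, but same-numbered tumours did not deviate together as a rule. Their r ran from -0.50 to 0.40 and was over 0.1 for 3, 1, 4 and 2 of 8 pairs in the 4 comparisons of groups. Whether same-numbered tumours also share a litter or batch was not tested, and the labels do not say. With the replicate block the genes under an unadjusted p of 0.05 were 6 in males, 1 for sex in ΔEcad tumours 1 for the interaction and 0 for genotype over both sexes and for sex over both genotypes, and a tumour correlated best with its own number in at most 1 of 8 pairs.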
